A study of Mus musculus with 24 samples.

Results

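The proximal ends of the mandible and of the maxilla were compared in mouse embryos that lack the TGF-beta type II receptor gene Tgfbr2 in the neural crest. The comparison takes the 3 mutant arrays of the proximal mandible against the 3 mutant arrays of the proximal maxilla, 6 of the 24 arrays of the series. They were chosen by their titles and not by any measured value. The question it addresses is whether the 2 jaws stay different from each other when neural crest cells cannot receive the TGF-beta signal.

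Mutants came from matings of Wnt1cre;Tgfbr2fl/+ with Tgfbr2fl/fl mice, strain label C57B6, and were taken at embryonic day 13.5. They were recognised by a cleft palate together with a defect of the calvaria. Controls were their littermates, whose own Tgfbr2 alleles and Cre status are not given, and they carry no other stated treatment. Wnt1-Cre acts in the dorsal neural tube and the neural crest that leaves it, so that epithelium, skeletal muscle, endothelium and blood of a mutant jaw keep the gene. Mutant proximal mandible, mutant proximal maxilla, control proximal mandible, control proximal maxilla and the 4 matching distal groups hold 3 arrays each. Whether a replicate is 1 embryo, a litter or a pool is not labelled, so p-values cover only the scatter among these samples, and that scatter may be technical. RNA of whole dissected pieces was hybridised to Affymetrix arrays, and all values are log2 signals.

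Upper and lower jaw form from neural crest cells that start out alike. Endothelin-1 from the surrounding epithelium and mesoderm signals to the crest of the lower part of the first pharyngeal arch and switches on Dlx5 and Dlx6, which in turn switch on Hand2 and hold back genes such as Pou3f3 that mark the upper jaw. TGF-beta signals through Tgfbr2 later act on crest-derived palate, bone, cartilage and tendon. The mandible grows bone along Meckel's cartilage, and its proximal end also makes the joint and the condyle, whereas the maxilla makes the palate and borders the nose, the eye and the trigeminal ganglion.

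Promoters of 3 genes among the 12 largest rises in the mutant mandible are shown first, from RefSeq on build GRCm38.p6, each a window of 300 bases around an annotated start. Hand2 gave the largest difference when each gene is read by its brightest probe set, and Dmp1 and Ibsp are neighbouring bone matrix genes on chromosome 5 with 0 other protein-coding genes between them. Capitals mark TAATTA, a core bound by many homeodomain factors, in Hand2 (chr8:57320733-57321032, plus strand) and ACCACA, the reverse strand of the RUNX core TGTGGT, in Dmp1 (chr5:104202367-104202666, plus strand). The Ibsp window (chr5:104299037-104299336, plus strand) holds neither. Another Dmp1 window (chr5:104197325-104197624, plus strand), not printed here, holds neither as well.
Hand2: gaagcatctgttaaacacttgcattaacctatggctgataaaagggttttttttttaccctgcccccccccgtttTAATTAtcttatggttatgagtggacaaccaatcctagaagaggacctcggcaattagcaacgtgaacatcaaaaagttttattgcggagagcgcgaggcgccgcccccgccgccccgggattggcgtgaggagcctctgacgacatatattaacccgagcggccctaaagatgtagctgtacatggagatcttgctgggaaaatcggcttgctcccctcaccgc
Dmp1: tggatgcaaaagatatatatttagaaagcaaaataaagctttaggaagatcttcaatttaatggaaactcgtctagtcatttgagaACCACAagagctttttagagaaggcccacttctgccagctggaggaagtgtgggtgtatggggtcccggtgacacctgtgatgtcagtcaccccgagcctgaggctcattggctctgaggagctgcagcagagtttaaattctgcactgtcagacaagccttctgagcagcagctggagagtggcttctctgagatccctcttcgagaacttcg
Ibsp: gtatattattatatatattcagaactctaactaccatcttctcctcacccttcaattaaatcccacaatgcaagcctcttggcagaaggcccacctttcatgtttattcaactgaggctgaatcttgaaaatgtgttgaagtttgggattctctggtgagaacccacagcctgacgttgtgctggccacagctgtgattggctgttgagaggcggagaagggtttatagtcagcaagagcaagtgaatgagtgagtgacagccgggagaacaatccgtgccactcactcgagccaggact
Searched on both strands, TGTGGT stood in 16.8% of 32851 RefSeq promoter windows of this length and in 2 of 15 windows (13.3%) of the bone genes that were higher in the mutant mandible, windows that belong to 10 genes with an entry. TAATTA, which reads the same on both strands, stood in 5.29% of all windows and in 1 of these 15 (6.67%). Such matches describe letters and are not binding sites.

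Of 13850 genes tested, limma called 788 between mutant proximal mandible and mutant proximal maxilla (5.69%, Benjamini-Hochberg adjusted p under 0.05), 378 higher in the mandible (2.73%) and 410 lower (2.96%). The 3 arrays of one jaw lay wholly above or below the 3 of the other in 2562 genes (18.5%), and 775 of the 788 called genes were among them. Mutant proximal arrays of the same replicate number deviated together clearly only for number 2 (r = 0.62). Numbers 1 and 3 gave 0.23 and 0.20, while mandible 1 with maxilla 3 gave 0.25. A fit with the set (genotype and number) as a fixed block stands beside this one. It called 789 higher (5.70%) and 932 lower (6.73%), 1721 in all (12.4%), and all 788 were among them. In a limma fit to the 6 arrays alone 232 genes passed, 212 of them among the 788. Leaving out both arrays of replicate 1 lowered the count to 317, with the other replicates still in the fit.

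Some properties of the arrays bear on these values. Between the 3' and 5' control probe sets of Gapdh, a gap that grows as RNA degrades, signals differed by 0.25, 0.06 and 0.29 in the mutant mandible and 0.33, 0.10 and 0.62 in the mutant maxilla, against -0.07 to 0.09 on control proximal arrays. With it as a covariate limma called 1748 genes, 926 higher and 822 lower. Of 4 sex-linked genes tested, 0 were called between the jaws by limma, 0 with the block and 0 at an unadjusted p under 0.05. The proximal arrays of mutant sets 2 and 3 held Xist and Y-linked transcripts together, with Xist at 13.24 to 13.69 and the mean of the Y-linked genes at 8.34 to 9.26. The part of RNA quality and of mixed sexes in the jaw differences was not tested beyond these fits.

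Tgfbr2 itself did not separate the jaws. Its brightest probe set read 12.38, 12.37 and 12.40 in the mutant mandible and 12.28, 12.42 and 12.57 in the mutant maxilla, so the arrays overlapped (difference -0.04 ± 0.11, limma SE, adjusted p = 0.934). A dimmer probe set differed by 0.09, the other way. The sources used here do not place these probes relative to the floxed part, so the value checks neither the deletion nor the labels.

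Genes of the mandibular programme marked the dissected jaws as labelled. Hand2, the transcription factor that endothelin signalling induces in the lower jaw, read 11.54, 11.02 and 11.31 in the mutant mandible and 6.76, 7.36 and 7.42 in the mutant maxilla. Every mandible array lay more than 3 log2 units above every maxilla array, a difference of 4.11 ± 0.45 (limma adjusted p = 1.98e-05). Hand2 read 11.09, 11.68 and 11.48 in control mandibles and 9.16, 6.99 and 7.54 in control maxillae, a difference of 3.52 (adjusted p = 0.000556). The other 2 Hand2 probe sets, both dim, gave 0.46 and 0.89 in mutants.

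Dlx3, a homeobox gene of the ventral arch that also acts in bone, read 9.37, 9.16 and 9.96 in the mutant mandible and 8.32, 7.72 and 8.71 in the mutant maxilla. It rose by 1.24 ± 0.23 in the mandible (limma adjusted p = 0.00296), with 0.80 in controls (adjusted p = 0.087). A dimmer Dlx3 probe set gave 0.23 in mutants. Gsc, a homeobox gene downstream of endothelin, read 9.54, 9.46 and 9.75 in the mutant mandible and 9.11, 7.21 and 7.77 in the mutant maxilla. The jaws did not overlap, although maxilla replicate 1 came close, and the difference was 1.55 ± 0.36 (limma adjusted p = 0.0135), against 1.10 in controls (adjusted p = 0.151). Without mandible replicate 3 or maxilla replicate 2 the adjusted p was 0.0594 or 0.0782. Msx1, a homeobox gene of jaw and tooth mesenchyme, read 11.82, 11.88 and 11.90 in the mutant mandible and 10.33, 10.44 and 10.31 in the mutant maxilla. The 3 arrays of each jaw stood close together, and the difference was 1.504 ± 0.32 (limma adjusted p = 0.00735).

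The remaining members did not follow. Dlx5 and Dlx6, the pair that sets lower jaw identity earlier in development, differed by 0.31 and 0.41 in mutants (limma adjusted p = 0.429 and 0.383). Hand1, a relative of Hand2 found in the distal midline, differed by 0.13, Edn1, the endothelin-1 gene, by -0.04 and Alx4, a homeobox gene of the frontonasal region, by -0.09 (adjusted p = 0.694, 0.957 and 0.887). Msx2 stood at -1.13 (limma adjusted p = 0.063). In all, 4 of 23 tested members of the mandibular list were higher in the mutant mandible and 0 lower, with a median of 0.13 where the median over all genes was -0.01. Proximal controls had 1 higher and 1 lower, with a median of 0.02. Over all genes 2.73% were higher and 2.96% lower in mutants, and 0.968% and 1.65% in controls.

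Upper jaw genes went the other way in 1 case. Pou3f3, a POU factor that marks the maxillary crest, read 11.15, 10.97 and 11.02 in the mutant mandible and 11.40, 11.94 and 11.74 in the mutant maxilla. The jaws did not overlap, and the difference was -0.65 ± 0.13 in mutants (limma adjusted p = 0.00627) and -0.58 in controls (adjusted p = 0.0224). Lhx8, a LIM homeobox gene of the oral mesenchyme that stands in the maxillary list, was on the contrary higher in the mutant mandible, at 11.41, 11.22 and 11.24 against 9.88, 10.18 and 10.26 in the mutant maxilla. This gave 1.19 ± 0.33 (limma adjusted p = 0.04), while controls overlapped (0.28, adjusted p = 0.95). The Lhx8 call was lost without any 1 of the 6 arrays (limma adjusted p = 0.0562 to 0.143). Nr2f1, an orphan nuclear receptor, and Six2, a homeobox gene, were at -0.37 each in mutants (limma adjusted p = 0.365 and 0.761). Of 21 maxillary genes tested, 1 was higher and 1 lower, beside 2.73% and 2.96% of all genes. Their median was -0.27 in mutants and -0.20 in controls.

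**Figure D1:**
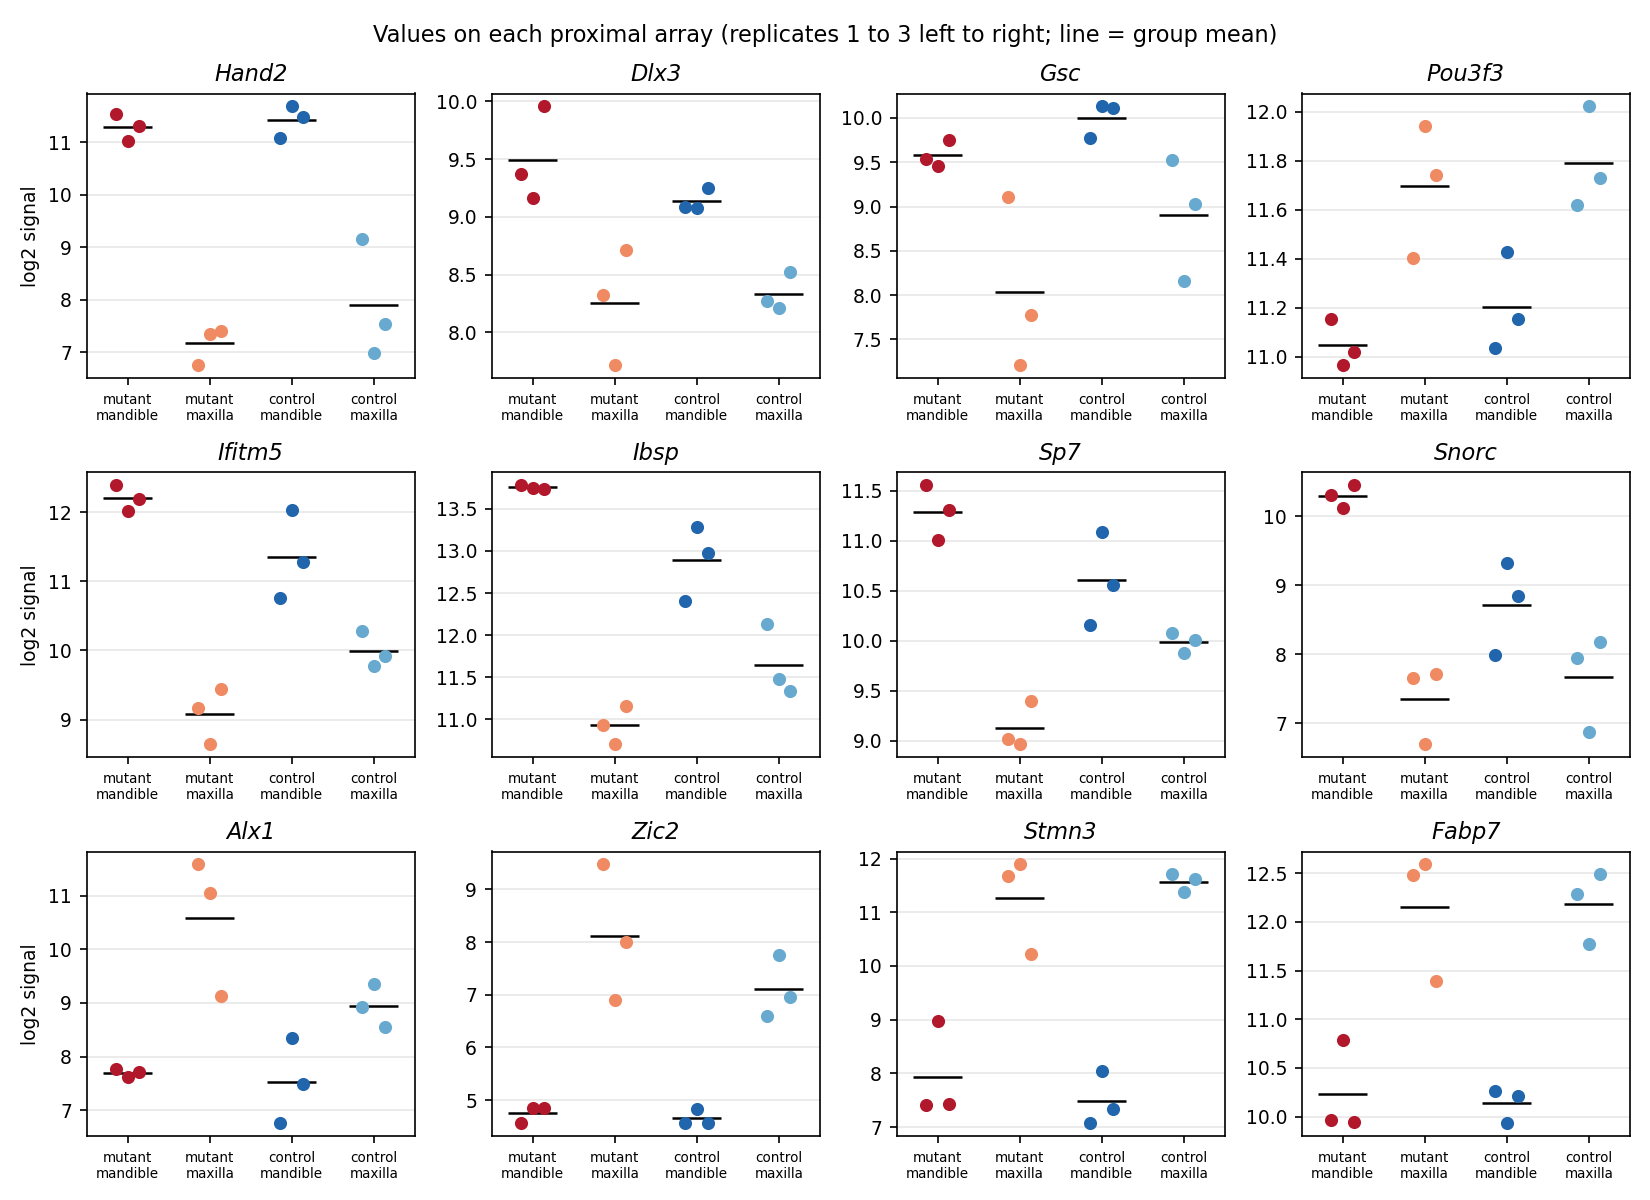
Log2 signal (vertical axis) of 12 genes on each of the 12 proximal arrays, in the order mutant mandible, mutant maxilla, control mandible and control maxilla; points are replicates 1 to 3 and the line is the mean of 3. Hand2 is near 11 in every mandible and below 10 in every maxilla, and bone genes such as Ifitm5 are spread further between the jaws in mutants than in controls.

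Other regulators of jaw and tooth patterning separated the mutant jaws as well. Pitx1, which specifies mandibular and dental mesenchyme and epithelium, read 11.71, 11.46 and 11.72 in the mutant mandible and 10.33, 9.08 and 10.22 in the mutant maxilla (1.76 ± 0.37, limma adjusted p = 0.00674). Tbx3, a T-box repressor, rose by 0.73 ± 0.14 (limma adjusted p = 0.00408), with 0.07 in controls (adjusted p = 0.999). For Tbx3 the difference between the genotypes was 0.66, which limma did not call. Fgf9, an epithelial growth factor of the tooth, was lower in the mutant mandible by 0.69, and Isl1, a LIM homeobox gene of oral epithelium and sensory neurons, was at -1.27 (limma adjusted p = 0.0102 and 0.0286). Both lost the call without mandible replicate 1 (adjusted p = 0.0621 and 0.098) and without maxilla replicate 2 (adjusted p = 0.051 and 0.135), Isl1 also without mandible replicate 2 or 3. Of 23 genes of the tooth field, 2 were higher and 2 lower, beside 2.73% and 2.96% of all genes. Forkhead genes were tilted toward the maxilla, with 0 of 12 higher, 3 lower and a median of -0.57.

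Foxl2, a forkhead factor best known from ovary and eyelid, read 8.67, 8.32 and 8.33 in the mutant mandible and 9.94, 11.11 and 10.10 in the mutant maxilla. It fell by 1.95 ± 0.36 (limma adjusted p = 0.00273), and its opposite-strand transcript Foxl2os by 2.45. Controls gave -2.03 for Foxl2 and -2.58 for Foxl2os. Foxp2, known for its role in vocal circuits, was at -1.20 and Foxd2 at -1.40 in mutants (limma adjusted p = 0.0223 and 0.0378). Both calls were lost without mandible replicate 1, mandible replicate 3 or maxilla replicate 1, where Foxp2 reached 0.0598 to 0.105 and Foxd2 0.109 to 0.202. Foxd2 was also lost without mandible replicate 2 or maxilla replicate 3, and Foxp2 without maxilla replicate 2.

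Among the lists, bone had the most genes on the mandibular side. Of 25 listed, 20 were found on the array and 19 tested. Of these, 14 were higher in the mutant proximal mandible, 0 lower and 5 not past the threshold, where 2.73% of all genes were higher. Dlx3, already counted in the mandibular list, is among the 14. The median difference was 1.24 over the list and -0.01 over all genes. It was 1.22, 1.39 and 1.24 in mutant pairs 1, 2 and 3. Control pairs gave 0.26, 0.87 and 0.47, with 2 genes higher and 0 lower, where 0.968% of all genes were higher in controls. Limma's test of the jaw difference, mutant minus control, called 0 of the 19, so no gap between the genotypes was shown. The list mean per array ran from 11.08 to 11.19 in the mutant mandible and from 9.75 to 9.94 in the mutant maxilla, against 10.24 to 10.76 in the control mandible and 9.91 to 10.04 in the control maxilla. In such pieces of tissue, more cells of a type and more RNA per cell cannot be told apart.

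Ifitm5, a membrane protein made almost only by osteoblasts, read 12.39, 12.02 and 12.20 in the mutant mandible and 9.16, 8.64 and 9.44 in the mutant maxilla. Its difference of 3.12 ± 0.30, or 8.68-fold, was the second largest rise among brightest probe sets (limma adjusted p = 9.7e-06). Ibsp, the bone sialoprotein, read 13.78, 13.75 and 13.74 in the mutant mandible and 10.93, 10.70 and 11.16 in the mutant maxilla (2.82 ± 0.51, limma adjusted p = 0.0023). A dimmer Ibsp probe set gave 4.29, more than any brightest probe set. Sp7, the transcription factor that commits cells to the osteoblast fate, read 11.55, 11.01 and 11.31 in the mutant mandible and 9.01, 8.96 and 9.39 in the mutant maxilla (2.17 ± 0.25, limma adjusted p = 3.32e-05). None of these 3 genes overlapped between the mutant jaws.

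Dmp1, an acidic matrix protein of osteocytes, read 9.19, 10.23 and 10.71 in the mutant mandible and 6.77, 7.74 and 7.80 in the mutant maxilla (2.61 ± 0.32, limma adjusted p = 6.8e-05). Alpl, the alkaline phosphatase that frees phosphate for mineral, was 3.66-fold higher, Smpd3, a sphingomyelinase needed for mineralisation, 4.99-fold and Pth1r, the parathyroid hormone receptor, 1.89-fold (limma adjusted p = 0.000142, 9.87e-06 and 5.24e-05). Col1a1, the collagen I gene that many other cells also use, did not pass, at 0.73 (limma adjusted p = 0.0871). It was picked after its value was seen.

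Several genes outside the list, among the 12 largest rises, are also known from mineralising tissue. Panx3, a pannexin channel of osteoblasts and maturing chondrocytes, was 6.52-fold higher in the mutant mandible, Sgms2, a sphingomyelin synthase, 7.31-fold and Slc13a5, a citrate transporter, 6.52-fold (limma adjusted p = 6.8e-05, 1.81e-05 and 1.27e-06). Col22a1, a collagen of tissue junctions, was 6.61-fold higher. Lipi, a lipase, was higher by 2.66 in log2 and Mlip, a partner of lamin A, by 2.61. The series means of Lipi and Mlip, 6.19 and 6.06, lay below the lowest array median of 7.003, so no fold is given for them. The chemokine gene Cxcl13 completes these 12 together with Snorc, and it differed in both genotypes (2.59 in mutants, limma adjusted p = 0.00578, and 2.79 in controls, adjusted p = 0.0066). Dimmer probe sets gave 1.202 for Cxcl13 and 2.23 for Sgms2 in mutants.

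Cartilage genes leaned the same way with a wider spread. Of 25 tested, 4 were higher in the mutant mandible and 0 lower (6 and 0 with the fixed block), with a median of 0.98 in mutants and 0.22 in controls. Mutant pairs 1, 2 and 3 gave 0.86, 1.16 and 0.79, and control pairs -0.49, 0.90 and -0.16. The test of mutant minus control called 0 of the 25, so no gap between the genotypes was shown. The share of all genes that were higher was 2.73%, and 5.70% with the fixed block. Snorc, a proteoglycan of cartilage, read 10.31, 10.13 and 10.45 in the mutant mandible and 7.66, 6.70 and 7.71 in the mutant maxilla (2.94 ± 0.50, limma adjusted p = 0.0013). Ihh, the hedgehog ligand of maturing chondrocytes, was higher by 1.09 in log2 and Chst11, a chondroitin sulfotransferase, 1.98-fold (limma adjusted p = 0.00581 and 0.0198). Pth1r of the bone list is the remaining gene. The series mean of Ihh, 6.72, lay below the lowest array median of 7.003, so no fold is given for it. The Chst11 call was lost without mandible replicate 1 or 3 or maxilla replicate 1 or 2 (adjusted p = 0.0533 to 0.0964). Main genes of cartilage, picked after their values were seen, did not pass, with the collagen II gene Col2a1 at 1.04 and the aggrecan gene Acan at 1.95 (limma adjusted p = 0.572 and 0.237).

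The signalling lists were counted in the same way, beside 2.73% of all genes higher and 2.96% lower in mutants. Of 34 WNT genes, 4 were higher in the mutant mandible and 0 lower. Dkk1, a secreted blocker of the LRP co-receptor, read 11.001, 10.49 and 10.96 in the mutant mandible and 8.91, 9.42 and 9.21 in the mutant maxilla (3.11-fold, limma adjusted p = 0.000165). Wif1, which binds WNT ligands, was 2.76-fold higher, Notum, an enzyme that inactivates them, 1.71-fold and the R-spondin receptor Lgr6 1.67-fold (limma adjusted p = 0.000325, 0.00615 and 0.0237). Without mandible replicate 1 or 2 or maxilla replicate 1 Lgr6 did not pass (0.08 to 0.137). In controls these 4 genes stood at 0.69, 0.85, 0.60 and 0.70, with 3 of the 34 WNT genes higher and 0 lower. Over all genes 0.968% were higher in controls. The fixed block gave 4 higher and 2 lower in mutants, where it called 5.70% of all genes higher and 6.73% lower.

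BMP genes gave 5 of 23 higher and 1 lower in the mutant mandible, with a median of 0.01, where 2.73% of all genes were higher and 2.96% lower. In controls limma called 0 of the 23 and the fixed block called 1 higher. Of all genes in controls 0.968% were higher, and 2.05% with the fixed block. The test of mutant minus control called 0 of the 23, so no gap between the genotypes was shown. The ligand Bmp2 read 11.02, 11.02 and 11.03 in the mutant mandible and 10.15, 10.38 and 10.01 in the mutant maxilla (1.79-fold, limma adjusted p = 0.00158). Bambi, a decoy receptor, was 2.07-fold higher, the ligand Bmp6 2.08-fold, the antagonist Nog 1.63-fold and the inhibitory Smad6 1.41-fold, while the receptor Bmpr1b was at 0.566 of the maxillary level (limma adjusted p = 0.00193, 0.0118, 0.00681, 0.0181 and 0.00401). The series mean of Nog, 6.565, lay below the lowest array median of 7.003, so its fold is uncertain. All 6 kept the call with the fixed block, but Bmp6 did not pass without mandible replicate 1 (adjusted p = 0.0506), nor Smad6 without mandible replicate 3 or maxilla replicate 2 or 3 (adjusted p = 0.0525 to 0.0998).

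Among FGF genes, 2 of 21 were higher and 3 lower, where 2.73% of all genes were higher and 2.96% lower. Fgfr3, a receptor of cartilage and bone, read 12.16, 11.74 and 11.87 in the mutant mandible and 10.65, 9.88 and 10.51 in the mutant maxilla (2.99-fold, limma adjusted p = 0.00577), and Fgfr2 was 1.34-fold higher (0.0038). The feedback inhibitors Il17rd and Spry4 were lower, at 0.695 and 0.783 of the maxillary level (0.018 and 0.0317). Within the TGF-beta list, 2 of 29 were higher and 1 lower. They were the ligand Tgfb1 at 1.74-fold, Smad6, and the activin receptor Acvr2a at 0.768 of the maxillary level (limma adjusted p = 0.0342, 0.0181 and 0.00366). Hedgehog genes gave 1 higher and 1 lower of 21, Ihh and Foxd2, and retinoic acid genes 0 of 16, although 4 of these had an unadjusted p under 0.05 and 4 were lower with the fixed block. With the fixed block the TGF-beta list had 3 higher and 2 lower and the hedgehog list 3 higher and 1 lower. That block called 5.70% of all genes higher and 6.73% lower. Single arrays mattered here. Tgfb1 did not pass without any 1 of 5 arrays (adjusted p = 0.0841 to 0.101), Spry4 without any 1 of 4 (adjusted p = 0.0853 to 0.17) and Il17rd without any 1 of 3 (adjusted p = 0.056 to 0.106).

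On the maxillary side, genes of sensory neurons were the largest group. Of 23 tested, 0 were higher and 12 lower in the mutant mandible, with a median of -1.31, and in controls 0 were higher and 14 lower, with a median of -1.998. The share of all genes that were lower was 2.96% in mutants and 1.65% in controls. Stmn3, a neuronal microtubule regulator, read 7.41, 8.97 and 7.43 in the mutant mandible and 11.68, 11.89 and 10.23 in the mutant maxilla (-3.33 ± 0.74, limma adjusted p = 0.00985). Ina, the neurofilament protein alpha-internexin, read 6.76, 7.41 and 6.72 in the mutant mandible and 11.06, 10.62 and 8.88 in the mutant maxilla (-3.22 ± 0.72, limma adjusted p = 0.00979). Stmn3 did not pass without mandible replicate 1 or 3 (adjusted p = 0.0558 and 0.051), nor Ina without maxilla replicate 1 (adjusted p = 0.0518). Maxilla replicate 3 was the lowest of its group in both genes, and the medians of the list in mutant pairs 1, 2 and 3 were -1.52, -1.88 and -0.82.

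Slc17a6, the vesicular glutamate transporter of excitatory neurons, was at -3.19 in the mutant mandible and Scn9a, a sodium channel of pain fibres, at -2.93 (limma adjusted p = 0.00145 and 0.00508). Prph, the neurofilament protein peripherin, was at -2.90 (limma adjusted p = 0.00278), although a dimmer probe set of it gave 0.07. Gdap1, a mitochondrial protein of neurons, was at -2.71 (limma adjusted p = 0.00583). Mandible arrays of Slc17a6, Scn9a and Gdap1 read from 3.74 to 6.43, below the lowest array median of 7.003, and signal over background is unknown, so no fold is given for them. Fabp7, a fatty acid binding protein of glia, read 9.96, 10.78 and 9.94 in the mutant mandible and 12.49, 12.59 and 11.39 in the mutant maxilla (-1.93 ± 0.27, limma adjusted p = 0.00029). Among 14 genes of Schwann cells and glia it alone passed, and with the fixed block 1 was higher and 2 lower. That block called 5.70% of all genes higher and 6.73% lower.

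The neuron counts depended on which arrays were used. Without both arrays of replicate 1, or without both of replicate 2, 6 genes were lower, without mandible replicate 1 there were 7, and in the fit to the 6 arrays alone 2. Dropping maxilla replicate 3 gave 17. The bone count was 11 in the fit to the 6 arrays alone and 8 without replicate 1.

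Genes known from tissues around the eye, nose and forebrain were called in both directions. The brain and pituitary list had a median of -0.04, with 1 of 9 genes higher and 2 lower, beside 2.73% and 2.96% of all genes. Alx1, a homeobox gene of frontonasal and periocular crest, read 7.77, 7.63 and 7.71 in the mutant mandible and 11.59, 11.05 and 9.14 in the mutant maxilla (-2.89 ± 0.57, limma adjusted p = 0.00392). Zic2, a zinc finger gene of the dorsal neural tube, read 4.56, 4.84 and 4.85 in the mutant mandible and 9.48, 6.89 and 8.01 in the mutant maxilla (-3.37 ± 0.40, limma adjusted p = 5.24e-05). Its neighbour Zic5 on chromosome 14 was at -2.99 and Zic1 at -2.69 (limma adjusted p = 0.00134 and 0.0345). Maxilla replicate 1 was the highest of its group for all 3 Zic genes and for Alx1. Without it Zic2 was at -2.70, Zic5 at -2.02 and Zic1 at -1.67, and the Zic1 call was lost (adjusted p = 0.186). It was also lost without any 1 of the mandible arrays (adjusted p = 0.0695 to 0.11). From the compared arrays alone none of the 3 Zic genes passed (limma adjusted p = 0.051 for Zic2, 0.157 for Zic5 and 0.23 for Zic1).

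Emx2, a forebrain and olfactory homeobox gene, read 9.28, 9.06 and 9.27 in the mutant mandible and 11.15, 10.19 and 10.57 in the mutant maxilla (-1.43 ± 0.17, limma adjusted p = 5.01e-05), and controls gave -0.37 (adjusted p = 0.421). For Emx2 the difference between the genotypes was -1.06, which limma did not call with all arrays in the fit. Crh, the corticotropin-releasing hormone, fell to 0.205 and Cdhr1, a cadherin of photoreceptors and olfactory neurons, to 0.165 of the maxillary level (limma adjusted p = 0.00172 and 9.87e-06). Lhx9, a LIM homeobox gene, was the other way at 2.05 in log2 (limma adjusted p = 0.00118). Its series mean of 5.465 lay below the lowest array median of 7.003, so no fold is given. Dimmer Lhx9 probe sets gave 0.13, 1.37 and 0.68. Eye and pigment genes had a median of -0.58 with 2 of 12 lower, the lens crystallin gene Crybb1 and the small heat shock gene Cryab. The retinal gene Rlbp1, picked after its value was seen, was the 1 member with a positive difference, at 1.60 (limma adjusted p = 0.116, 0.0409 with the random block and 0.011 from the compared arrays alone). Olfactory genes had a median of -0.43 with 1 of 10 lower, Ebf2, a transcription factor of olfactory neurons and adipocytes. With the fixed block 2 olfactory genes were lower, beside 6.73% of all genes. Cryab did not pass without mandible replicate 1 or maxilla replicate 3 (adjusted p = 0.0655 and 0.0678). In controls these medians were -0.09 and -0.21. The list mean of eye and pigment genes was 7.30 to 7.43 in the mutant mandible and 7.73 to 7.93 in the mutant maxilla, against 7.01 to 7.46 in the control mandible and 7.36 to 7.49 in the control maxilla. Whether the dissection line contributed was not tested.

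Lists of other cell types gave smaller counts, and several of these depended on the block. Over all genes 2.73% were higher and 2.96% lower, or 5.70% and 6.73% with the fixed block. Muscle genes had a median of -0.49 with 0 of 38 called by limma, 6 at an unadjusted p under 0.05 and 1 with the fixed block, and their list mean on the 3 mutant maxilla arrays ran from 9.60 to 10.72. Of 24 endothelial genes 2 were lower, the factor Erg and the sialomucin Emcn, and of 22 macrophage genes 1, the protease gene Ctss. Of 10 red blood cell genes 0 were called, 0 with the block and 0 at an unadjusted p under 0.05. Among 14 smooth muscle and pericyte genes 1 was higher, Ndufa4l2, a mitochondrial protein of pericytes. Emcn did not pass without any 1 of 5 arrays (adjusted p = 0.0595 to 0.145), Ctss without any 1 of 4 (adjusted p = 0.0534 to 0.168) and Ndufa4l2 without any 1 of 3 (adjusted p = 0.0641 to 0.121). Of 19 tendon genes 1 was lower, Scx, the transcription factor of tendon progenitors, at 6.31, 6.79 and 6.55 in the mutant mandible and 7.29, 7.63 and 7.73 in the mutant maxilla (-1 ± 0.21, limma adjusted p = 0.0064). With the fixed block 2 tendon genes were higher and 3 lower. In the stromal matrix list Col5a2, a fibril collagen, was 1.26-fold higher and Fbln5, which helps to assemble elastic fibres, at 0.482 of the maxillary level (limma adjusted p = 0.00442 and 6.8e-05), and the fixed block called 4 higher and 2 lower. It called 2 macrophage genes lower and 2 smooth muscle and pericyte genes higher.

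Of 30 epithelial genes 1 was higher in the mutant mandible, Dsc3, a desmosomal cadherin (0.94 ± 0.27, limma adjusted p = 0.0466), with a list median of 0.01, and 2 were higher with the fixed block. Its call was lost without any 1 of 5 arrays (adjusted p = 0.0648 to 0.207). In controls 12 of the 30 were higher and 0 lower, with a median of 0.66. The share of all genes that were higher was 2.73% in mutants (5.70% with the fixed block) and 0.968% in controls. The test of mutant minus control called 0 of the 30. Krt14, a keratin of basal cells, read 10.90, 10.91 and 11.11 in the mutant mandible and 10.16, 10.57 and 10.86 in the mutant maxilla, a difference of 0.45 (limma adjusted p = 0.128). It read 11.25, 11.26 and 10.99 in control mandibles and 10.15, 10.53 and 10.08 in control maxillae, a difference of 0.91 (adjusted p = 0.004). For Krt14 the difference between the genotypes was -0.47 (95% interval -0.94 to 0.01, limma adjusted p = 1), and a gap between the genotypes was not shown.

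Genes of the remaining lists moved in small numbers, beside 2.73% of all genes higher and 2.96% lower. In the list of hypoxia and glycolysis 3 of 26 were higher, the collagen hydroxylases P4ha1 and P4ha2 and the hexokinase gene Hk2, and 1 was lower, the vasodilator peptide gene Adm. The brain and pituitary genes called were Lhx9, which was higher, and Crh and Emx2, which were lower. Of 11 salivary gland genes 1 was higher, Bhlha15, a secretory cell factor, and 1 lower, Kit, a receptor kinase. In the ear and pharynx list 1 of 11 was higher (Gsc) and 2 lower, 1 of them Pax1, a paired box gene of the pharyngeal pouches (0.388 of the maxillary level, limma adjusted p = 0.00891). Neural crest mesenchyme had 1 higher and 1 lower of 20, palate 1 higher of 17 (1 higher and 3 lower with the fixed block), Hox genes 0 of 8 and cell cycle 0 of 31. At an unadjusted p under 0.05 there were 1 Hox gene and 5 cell cycle genes, and the fixed block called 0 Hox and 2 cell cycle genes. Over all genes that block called 5.70% higher and 6.73% lower. Adm did not pass without any 1 of 5 arrays (adjusted p = 0.065 to 0.18), Hk2 without any 1 of 4 (adjusted p = 0.0576 to 0.164), Bhlha15 without any 1 of 3 (adjusted p = 0.0573 to 0.156) and Pax1 without mandible replicate 3 or maxilla replicate 2 (adjusted p = 0.0508 and 0.0509).

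**Figure D2:**
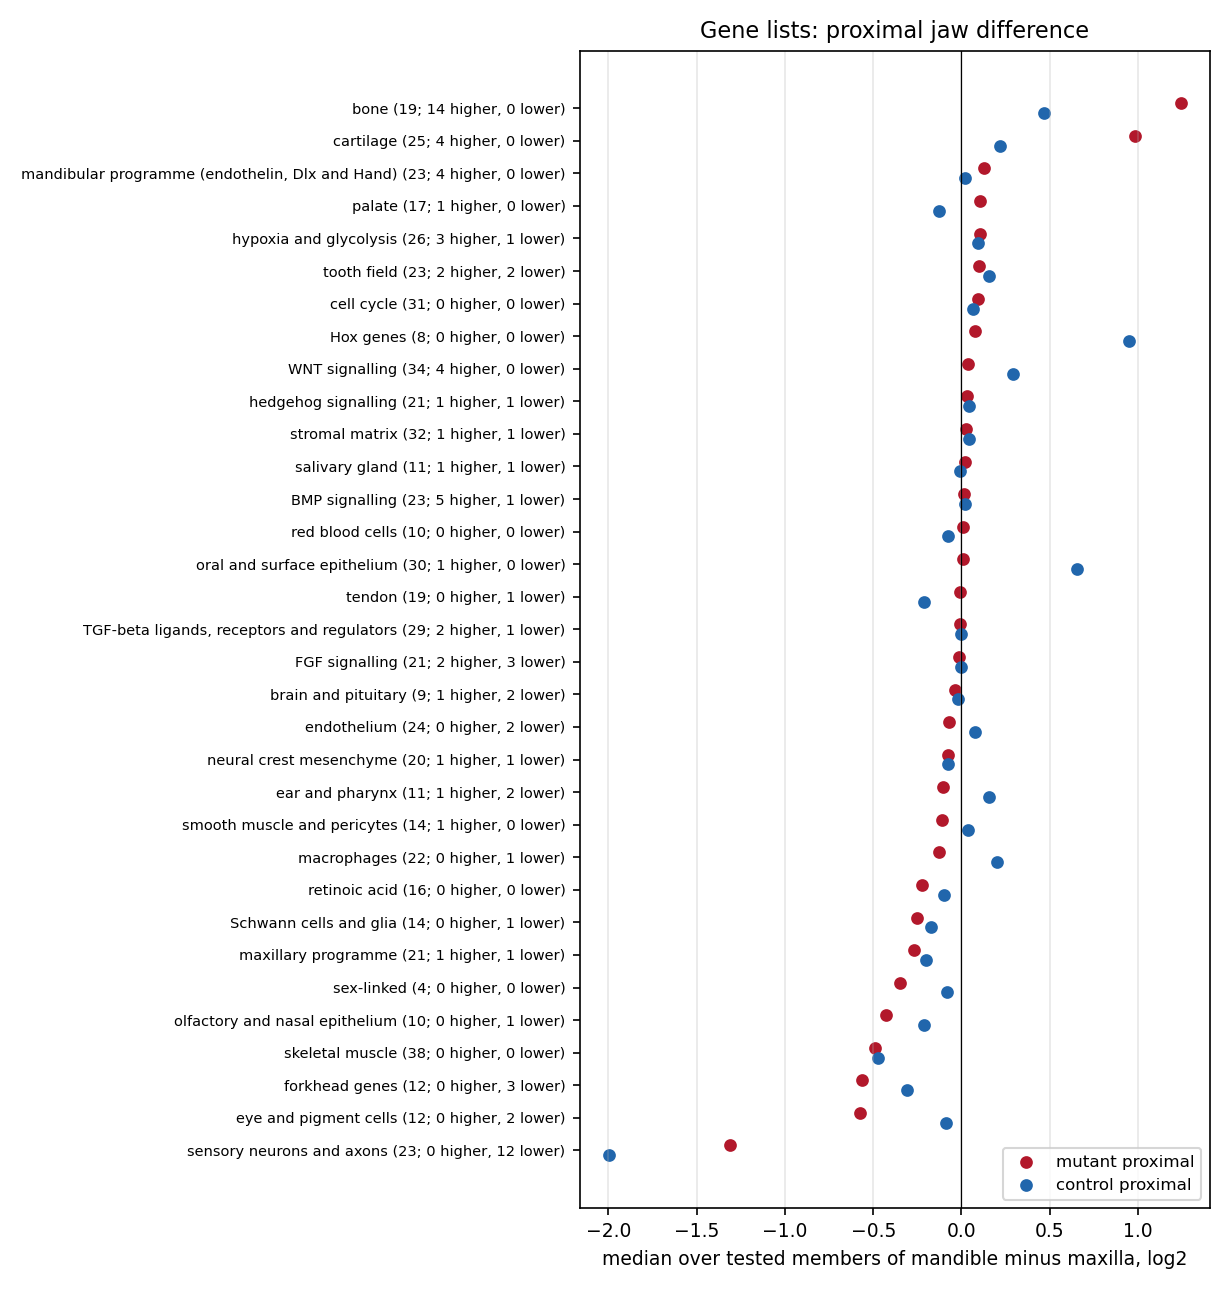
Median log2 difference, mandible minus maxilla, over the tested members of each of the 33 gene lists (horizontal axis), in mutant (red) and control (blue) proximal ends; brackets give the number tested and the numbers called higher and lower in mutants. Bone and cartilage stand furthest to the right in mutants, at 1.24 and 0.98, and sensory neurons furthest to the left in both genotypes, at -1.31 and -1.998.

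The same comparison in control littermates showed how far these jaw differences are shared. Limma called 362 genes between the control jaws (2.61%), 134 higher in the mandible (0.968%) and 228 lower (1.65%), and the arrays did not overlap in 3549 genes (25.6%). Of these 362, 212 were also called in mutants with the same sign and 0 with the opposite sign, which is 26.9% of the mutant calls and 58.6% of the control calls. The sign was shared by 758 of the 788 mutant calls (96.2%) and by 344 of the 362 control calls (95%). Across all genes the 2 differences correlated at r = 0.713, a value over genes, which are not independent replicates. No array enters both differences. Both tests take the variance of each gene from 1 fit to all arrays of the series, so the 2 sets of calls are not independent.

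The distal ends of control jaws gave a set of jaw-specific genes whose distal differences come from none of these arrays. The variance of each gene and the expression filter came from all arrays of the series, proximal ones included. The choice of genes was therefore not independent of the proximal arrays. Limma called 1275 genes between the control distal jaws (9.21%). Turned so that the control distal direction counts as positive, their median proximal difference was 0.21 in mutants (0.09, 0.26 and 0.23 in pairs 1, 2 and 3, SD 0.0898) and 0.17 in controls (0.06, 0.31 and 0.15, SD 0.128). The ranges over pairs overlapped. The proximal difference had the control distal sign in 970 of these genes in mutants (76.1%) and in 972 in controls (76.2%).

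**Figure D3:**
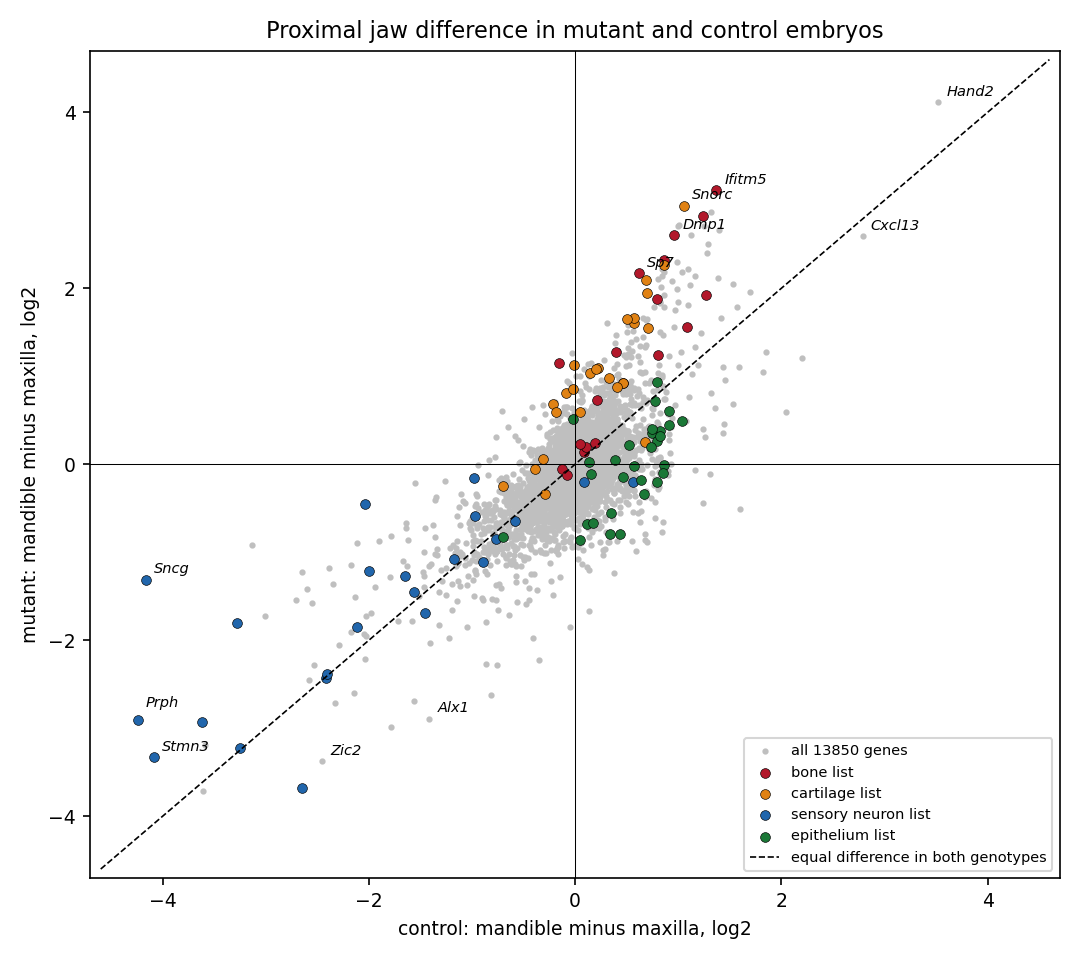
Log2 difference, mandible minus maxilla, of each of 13850 genes in control (horizontal axis) and mutant (vertical axis) proximal ends, with 4 gene lists in colour and a dashed line of equal differences. Hand2 lies in the upper right corner and Stmn3 and Prph in the lower left, while most bone and cartilage genes lie above the dashed line and most epithelial genes below it.

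Whether the jaw difference itself depended on the genotype was tested as an interaction. With arrays as replicates limma called 0 genes (0%), the smallest adjusted p was 0.305, and 596 genes (4.3%) had an unadjusted p under 0.05. The fixed block called 0 too (smallest adjusted p = 0.115), and the random block called 6 genes (0.0433%), St3gal1 higher and Apoc1, Ccnb3, Bcl11b, Mt1 and Nradd lower, with a smallest adjusted p of 0.0484. Missing the threshold does not show that the jaws differ equally in both genotypes, and the intervals are wide. For Hand2 the mutant jaw difference exceeded that of controls by 0.59, with a 95% interval from -0.75 to 1.94. The interval was -0.25 to 1.14 for Dlx3, -0.63 to 1.53 for Gsc, -0.46 to 0.34 for Pou3f3 and -0.08 to 1.89 for Lhx8.

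Among the 8 genes with the smallest p where mutant minus control was positive, Sp7, Smpd3, Slc13a5, Lipi, Clec11a and Slc9a2 were higher in the mutant mandible than in the mutant maxilla. The choice of these genes used the mutant jaw difference, so this is no separate result. Slc13a5 read 10.48, 10.09 and 10.41 in the mutant mandible and 7.63, 7.42 and 7.81 in the mutant maxilla, against 8.71, 9.70 and 9.18 in the control mandible and 8.10, 7.88 and 7.88 in the control maxilla. Its jaw difference was 2.71 in mutants and 1.25 in controls, and the difference of these was 1.46 (95% interval 0.82 to 2.09, limma adjusted p = 0.328). Sp7 gave 2.17 and 0.62, a difference of 1.55 (0.81 to 2.29, limma adjusted p = 0.328). Clec11a, a growth factor of bone marrow and osteoblast precursors, gave 1.92 and 0.86, and Slc9a2, a sodium-proton exchanger, 2.11 and 0.81.

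St3gal1, a sialyltransferase, was at 0.32 in mutants and -0.27 in controls. Sncg, the sensory neuron protein gamma-synuclein, read 7.77, 8.03 and 7.77 in the mutant mandible and 7.77, 10.93 and 8.81 in the mutant maxilla, so the mutant jaws met at 7.77. It read 6.51, 5.71 and 6.65 in control mandibles and 10.49, 10.12 and 10.74 in control maxillae, without overlap. The jaw differences were -1.31 and -4.16, and their difference was 2.85 (1.46 to 4.24, limma adjusted p = 0.328).

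Among the 8 where mutant minus control was negative, Ccnb3, a cyclin known from germ cells, read 5.40, 5.84 and 5.68 in the mutant mandible and 6.34, 7.72 and 7.88 in the mutant maxilla, against 5.52, 5.48 and 5.35 in the control mandible and 5.33, 5.45 and 5.17 in the control maxilla. The 3 mutant maxilla arrays lay above the other 9, and the jaw differences were -1.67 and 0.14 (difference -1.81, -2.60 to -1.01, limma adjusted p = 0.328). These 8 genes were also chosen on the same arrays, so this separation is no separate result. The series mean of Ccnb3, 5.53, lay below the lowest array median of 7.003, and its signal over background is unknown. Apoc1, an apolipoprotein, gave -0.55 and 0.44, Igfbp7, an IGF binding protein, -0.62 and 0.37, and Bcl11b, a zinc finger factor of skin and teeth, -0.18 and 0.52. Igfbp7 did not pass between the mutant jaws without mandible replicate 1 or 2 or maxilla replicate 1 (adjusted p = 0.0632 to 0.108), nor Apoc1 without maxilla replicate 1 (adjusted p = 0.055). A dimmer Igfbp7 probe set gave 0.04 in mutants and one of Bcl11b 0.03. The metallothioneins Mt1 and Mt2, close relatives and neighbours whose probes may share signal, gave -0.26 and -0.43 in mutants and 0.82 and 0.77 in controls. Fam107b and Prom1, a membrane protein of epithelial and stem cells, were at -0.43 and -0.55 in mutants and 0.09 each in controls.

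**Figure D4:**
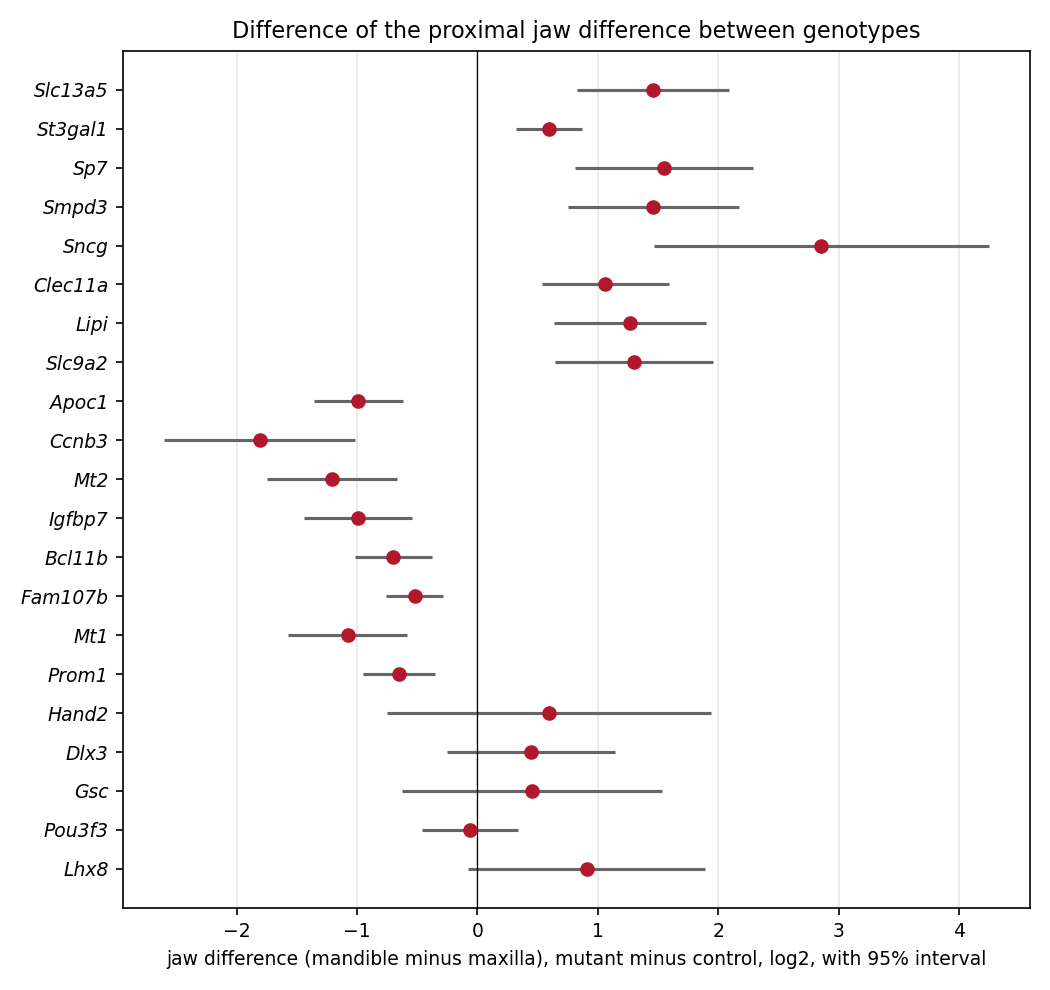
Difference of the proximal jaw difference, mutant minus control, in log2 (points) with 95% intervals (lines) for the 8 genes of smallest p in each direction and for Hand2, Dlx3, Gsc, Pou3f3 and Lhx8. The intervals of the first 16 lie off 0 before adjustment, and those of the 5 jaw identity genes include 0.

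This test leaned on single arrays. Without control mandible replicate 2, 26 genes passed, 14 with mutant minus control positive and 12 with it negative, and 2 of the 14 were bone list genes, Ifitm5 (2.09) and Sp7 (1.79). That array had the highest bone list mean of the control mandibles, at 10.76 against 10.24 and 10.50. Without mutant maxilla replicate 2, 14 genes passed, and without mutant maxilla replicate 1 or 3, 1 each. Without any 1 of the other 8 proximal arrays the count was 0. The control mandible arrays also differed in Hox genes, with list means of 9.07, 6.76 and 8.46, against 7.24 to 7.59 in the mutant mandible.

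By group means, the wider gap of bone genes in mutants came with higher values in the mutant mandible. The median over the 19 bone genes of mutant minus control was 0.68 in the mandible, positive in 17, and -0.09 in the maxilla, negative in 12. This is a description of means over 3 arrays each, with no test.

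The distal ends of mutant jaws show where the proximal comparison differs. Limma called 681 genes between the mutant distal jaws (4.92%), 237 higher in the mandible (1.71%) and 444 lower (3.21%). Of these, 155 were also called proximally with the same sign and 12 with the opposite sign. The test of proximal minus distal called 183 genes (1.32%), 112 with the proximal difference above the distal one (0.809%) and 71 below it (0.513%). Hand2 was not among them, with 4.11 proximally and 4.64 distally (limma adjusted p = 0.985).

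Barx1, a homeobox gene of proximal jaw and molar mesenchyme, read 12.15, 11.82 and 12.0045 in the mutant proximal mandible and 11.42, 11.20 and 11.70 in the mutant proximal maxilla. At the distal end it read 9.33, 8.30 and 8.33 in mutant mandibles and 10.70, 10.97 and 11.60 in mutant maxillae. The jaw difference was 0.55 proximally and -2.44 distally, 2.99 apart (limma adjusted p = 0.000246). Dmp1 was highest in the proximal mandible and read 6.25, 5.96 and 6.22 in the distal mandible and 6.86, 6.80 and 7.36 in the distal maxilla. Its jaw differences of 2.61 and -0.87 lay 3.47 apart (limma adjusted p = 0.000484). Lpar3, a lysophosphatidic acid receptor, gave 1.84 and -0.21, Pcolce, which aids collagen maturation, 0.46 and -0.54, and Lipi 2.66 and 0.39 (limma adjusted p = 0.000347, 0.000484 and 0.000566). The bone list had 4 of 19 genes above the distal difference and 0 below.

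In the other direction, Sfrp4, a secreted WNT regulator, stood at -0.06 proximally and 3.28 distally, Masp1, a complement protease, at -0.08 and 1.74, and Tafa4, a secreted peptide of sensory neurons, at -0.11 and 1.54 (limma adjusted p = 0.000347 each). Olfm1, a secreted neuronal glycoprotein, gave -0.70 and 0.39, and Fam155a, a subunit of a sodium leak channel complex, -0.94 and 1.25. Zic2 had differences of -3.37 and -0.04, and Alx1 turned from the maxilla proximally (-2.89) to 0.90 distally (limma adjusted p = 0.00569 and 0.0209). Nr2f1 was at -0.37 proximally and -2.38 distally (limma adjusted p = 0.000924).

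**Figure D5:**
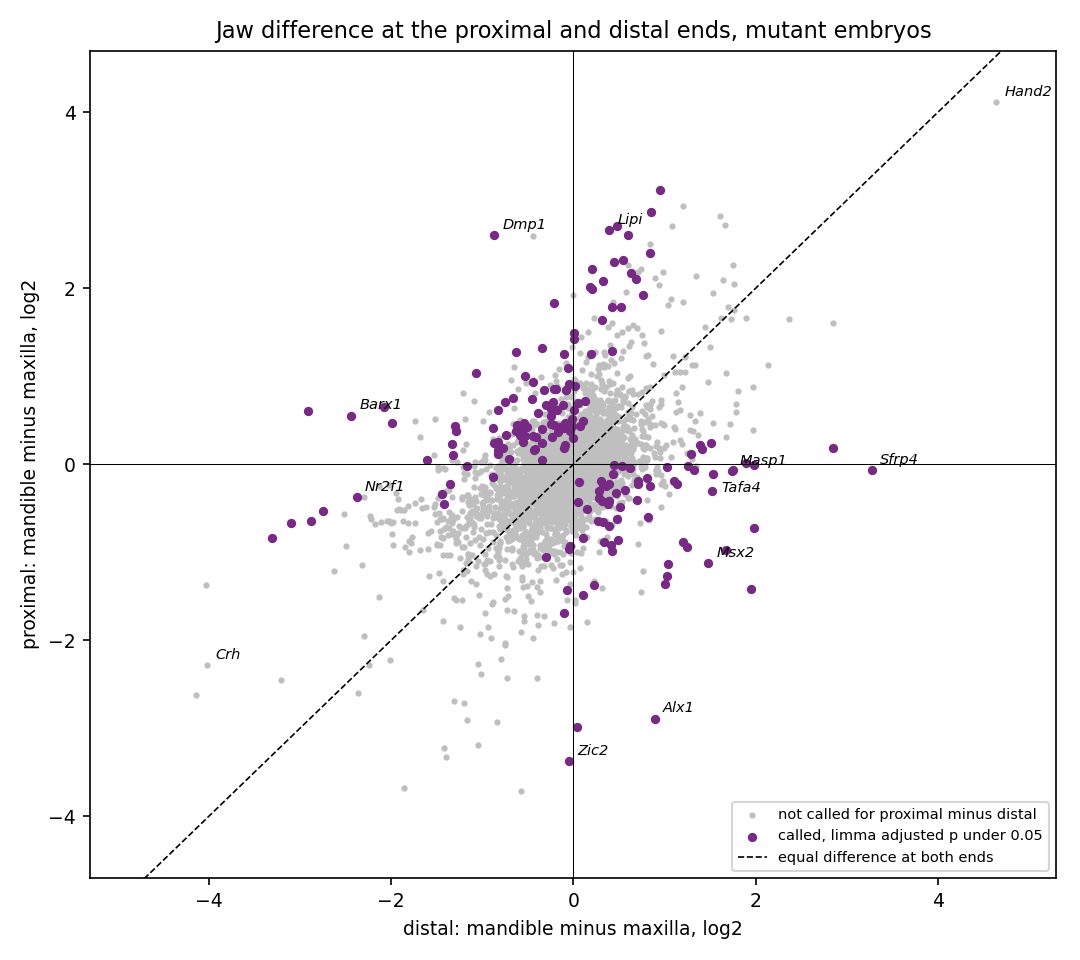
Log2 difference, mandible minus maxilla, of each gene at the distal (horizontal axis) and proximal (vertical axis) ends of mutant jaws; purple points are the 183 genes called for proximal minus distal. Hand2 lies near the dashed line of equal differences, Dmp1 and Barx1 lie above it, and Sfrp4, Alx1 and Zic2 below it.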

How the data were processed

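RNA of dissected jaw pieces was labelled with biotin and hybridised to Affymetrix expression arrays of 45101 probe sets, 24 arrays in 8 groups of 3. The deposited values are log2 signals per probe set, made by the authors with RMA per the submitters' processing notes, and the sources used here give neither the RMA version nor which arrays were normalised together. The log2 scale was read from the values, and no centring by gene was applied. Array medians ran from 7.00 to 7.08. No scanner files were used here, so signal over background is unknown.

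In the platform annotation 34958 probe sets have 1 gene symbol, 932 several and 9211 none, and only the first were named, 34754 of them matched to RefSeq. A gene was represented by its brightest probe set, judged by the mean signal of the whole series. Genes above the 40th percentile of their array on at least 3 arrays were kept, 13850 of 18194. The model, fitted with limma 3.58.1 (R 4.3.3), had a coefficient for each of the 8 groups and used all 24 arrays, which leaves 16 residual degrees of freedom, and p-values were adjusted by Benjamini-Hochberg over all genes tested. Errors are limma's standard errors. The genes named were Tgfbr2, the 12 largest rises and falls without overlap, the 8 smallest p in each direction for the genotype difference and the 5 for the difference between ends, up to 6 members of a list and 12 jaw identity genes. The fit was checked on simulated data. No 2 arrays were identical, the highest correlation being 0.997.

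The members and the 33 gene lists were chosen with earlier results of these data known. Same-numbered mandible and maxilla arrays of mutant proximal ends deviated from their group means with r of 0.23, 0.62 and 0.20. The numbers were taken as pairs, although mutant mandible replicate 1 with maxilla replicate 3 gave 0.25. For numbers 1 and 3 the pairing was therefore assumed and not shown. In proximal controls r was 0.26, 0.00 and 0.34, so number 2 showed no link between the jaws. The block fits and the values by pair used the control numbers in the same way. Alternatives were another choice of probe set, other filters, renewed quantile normalisation, the compared arrays alone, the block, other eBayes settings, a Gapdh covariate and arrays left out. Parts of the series other than the 4 mandible against maxilla comparisons were not analysed here.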

Additional observations from a re-analysis of the deposited data

Results flagged for a closer look

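Of the 115 genes named, 31 had a jaw difference in mutants that differed between the proximal and the distal end by limma's test of that difference, where 1.32% of all genes tested did. Several of them were named for this test, so the share is no result. Each value is the proximal minus the distal jaw difference on the log2 scale, followed by the proximal and the distal one.

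Of the 31, 4 are bone list genes, Ifitm5 (2.16, from 3.12 and 0.95), Sp7 (1.53, from 2.17 and 0.64), Smpd3 (1.77, from 2.32 and 0.54) and Dmp1 (3.47, from 2.61 and -0.87). Further genes above the distal difference were Slc13a5 (2.23, from 2.71 and 0.48), Lipi (2.27, from 2.66 and 0.39), Sgms2 (2.02, from 2.87 and 0.85), Mlip (2.01, from 2.61 and 0.60), Lpar3 (2.05, from 1.84 and -0.21), Slc9a2 (1.42, from 2.11 and 0.69), Clec11a (1.15, from 1.92 and 0.76) and Pcolce (1.00, from 0.46 and -0.54). The signalling genes Bmp2 (1.16, from 0.84 and -0.32) and Dkk1 (1.33, from 1.64 and 0.31) and the transcription factor genes Barx1 (2.99, from 0.55 and -2.44) and Nr2f1 (2.01, from -0.37 and -2.38) were above it too, although for Nr2f1 both differences were negative.

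Below the distal difference were the transcription factor genes Zic2 (-3.33, from -3.37 and -0.04), Zic5 (-3.03, from -2.99 and 0.04), Alx1 (-3.79, from -2.89 and 0.90), Emx2 (-1.36, from -1.43 and -0.07), Msx2 (-2.60, from -1.13 and 1.48) and Isl1 (-2.30, from -1.27 and 1.03). Msx2 and Isl1 thus lay toward the maxilla proximally and toward the mandible distally, as did Alx1, and in the single comparisons Alx1 and Isl1 did not pass distally nor Msx2 proximally. The remaining genes below it were Sfrp4 (-3.34, from -0.06 and 3.28), Masp1 (-1.81, from -0.08 and 1.74), Tafa4 (-1.64, from -0.11 and 1.54), Fam155a (-2.18, from -0.94 and 1.25), Olfm1 (-1.09, from -0.70 and 0.39), Igfbp7 (-1.10, from -0.62 and 0.48), Fbln5 (-0.75, from -1.05 and -0.30), Nradd (-0.56, from -0.23 and 0.32) and Fam107b (-0.49, from -0.43 and 0.06). The jaw difference of 0 named genes differed between the genotypes in limma, where 596 of all genes had an unadjusted p under 0.05.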

How the results depend on the processing

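The count of 788 genes between mutant proximal jaws was 232 from the compared arrays alone, 1721 with the set as a fixed block, 1783 as a random block (duplicateCorrelation) and 1748 with the Gapdh covariate, and 317 to 862 with arrays left out. The other 5 alternatives stayed within 675 to 842. With the fixed block the control proximal count of 362 was 664, the mutant distal one of 681 was 1259, the proximal minus distal one of 183 was 428 and the control distal one of 1275 was 1966. Arrays left out gave 136 to 266, 337 to 872, 94 to 369 and 773 to 1103 for these. The genotype difference had 0 genes, 6 with the random block and 0 to 26 with arrays left out. The median that uses the control distal genes moved by less than the SD over pairs. Of 91 called genes named, 32 kept the call under all alternatives run and none was reversed. 46 lost it with the compared arrays alone, a fit with fewer samples. The fixed block changed 2 other calls named and the random block 7, which then passed. Reversed signs were seen only in genes not called. Tgfbr2 was 0.0119 with the mean of all probe sets. With arrays left out Tgfbr2 ranged from -0.11 to 0.0362, Masp1 from -0.20 to 0.0706, Tafa4 from -0.26 to 0.0249, Sfrp4 from -0.30 to 0.13, Edn1 from -0.23 to 0.0928 and Alx4 from -0.21 to 0.0287. The causes were not tested. The number of arrays limits the precision.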
